A study of Mus musculus with 6 samples.

Results

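The genes described here are the Wnt ligands, their receptors, the Lgr5 branch and the cytoplasmic and nuclear core of the Wnt pathway. They were compared between mouse tumour samples with and without a drug given to turn miR-155 off. Members were taken by a pattern of symbols, and were chosen with earlier results of these data known. The pattern takes the Wnt, Frizzled (Fzd), R-spondin (Rspo), Dickkopf (Dkk), Sfrp, Dishevelled (Dvl), Tcf7, Lef1, Axin, Apc and Ctnnb1 symbols. It also takes Lgr4 to Lgr6, Lrp5, Lrp6, Znrf3 and Rnf43. Of the 29209 rows of the table, 57 matched. The tumours grew under the skin of NCr nude mice, an athymic strain with few mature T cells, from injected spleen cells of diseased mir-155LSLtTA mice. In these donors a tetracycline transactivator drives miR-155 and doxycycline (DOX) turns it off. RNA came from 3 DOX samples, taken after 16 hours on chow with 2.3 mg/kg of the drug, and from 3 no DOX samples that received none. All 6 carry the transgene, so an effect of the drug itself cannot be told apart from loss of miR-155. The sources used here do not say which cells or which Cre drive the transgene, or whether samples within a group are separate animals or donors.

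Wnt proteins are lipid-modified secreted ligands that bind a Frizzled receptor together with the coreceptor LRP5 or LRP6. Without a ligand, the scaffolds Axin and APC hold beta-catenin (Ctnnb1) for phosphorylation and breakdown, and with a ligand beta-catenin enters the nucleus and works with TCF and LEF factors. R-spondins bind LGR4, LGR5 or LGR6 and remove the ubiquitin ligases ZNRF3 and RNF43, which otherwise take Frizzled receptors off the cell surface. In the lymphoid lineages this pathway is known for its roles in early progenitors and in thymocytes, where Tcf7 and Lef1 are prominent.

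The authors' deposited table gives, for each gene, a ratio between the groups, an unadjusted p and an adjusted p, and no value per sample, group mean or depth. Values in single tumours can therefore not be shown, and the p-values rest on the scatter among these 6 samples, part of which may be technical. The table does not state which group is the numerator. Ratios were read as DOX over no DOX, and under the opposite reading every rise below is a fall. A gene was called, and is said to have risen or fallen, at an adjusted p under 0.05. As a measure of precision, an approximate 95% interval of the log2 fold was worked out from the fold and its unadjusted p where that p was at most 0.5. Such intervals assume a normal estimate and are not the authors' own.

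Of the 57 members, 44 had a p, 3 rose and 1 fell, per the authors' deposited table. Lgr5, a receptor for R-spondins and a marker of stem cells in several epithelia, Apc and the transcription factor gene Tcf7l2 rose, and the ligand gene Wnt5b fell. The share called was 9.09% of the members tested, beside 11.3% of all 18543 tested rows per the authors' deposited table. By direction, 5.72% of all tested rows rose and 5.61% fell per the authors' deposited table, so the members as a set were called about as often as the rest. Among named genes alone, falls outnumbered rises, as given in the last section. Of the members without a call, 26 had a finite ratio, 13 a ratio listed as infinite and 1 a ratio listed as 0, and 13 had neither ratio nor p per the authors' deposited table.

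**Figure D1:**
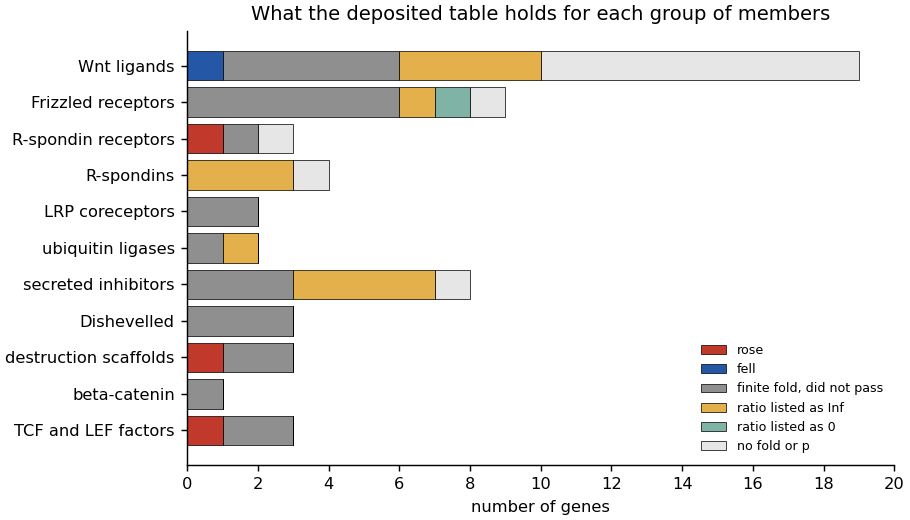
Number of genes in each functional group of the Wnt pathway (horizontal axis, count of genes), divided by what the deposited table holds for them. Of the 19 Wnt ligands 9 had no value and 1 fell, while all 3 Dishevelled, all 3 destruction scaffold and all 3 TCF and LEF genes had a finite ratio.

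Lgr5 was 40.9-fold higher in DOX tumours than in no DOX tumours, a log2 fold of 5.35 (adjusted p = 2.07e-07) per the authors' deposited table. The approximate interval of its log2 fold ran from 3.65 to 7.06. It stood 74th of 18543 tested rows by p, and its log2 fold was 11th among 1036 called rows with a finite higher ratio per the authors' deposited table. Wnt5b, which encodes a ligand mostly described in beta-catenin-independent signalling, was lower in DOX tumours, with a ratio of 0.0994 and a log2 fold of -3.33 (adjusted p = 1.29e-07) per the authors' deposited table. Its approximate interval ran from -4.38 to -2.28, its rank by p was 70, and its log2 fold was 46th from the lowest among 1034 called rows with a finite lower ratio. These are the members with the lowest p, and they lie on opposite sides.

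Apc, the scaffold whose loss stabilises beta-catenin in intestinal tumours, was 2.68-fold higher (log2 fold 1.42, adjusted p = 0.00240) per the authors' deposited table, with an approximate interval of 0.71 to 2.13. Tcf7l2, a TCF factor that binds beta-catenin, was 2.52-fold higher (1.33, adjusted p = 0.0311) per the authors' deposited table, with an approximate interval of 0.46 to 2.21. Both rises were small beside most others: among the 1036 called rows with a finite higher ratio, Apc was 864th and Tcf7l2 907th by log2 fold per the authors' deposited table.

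**Figure D2:**
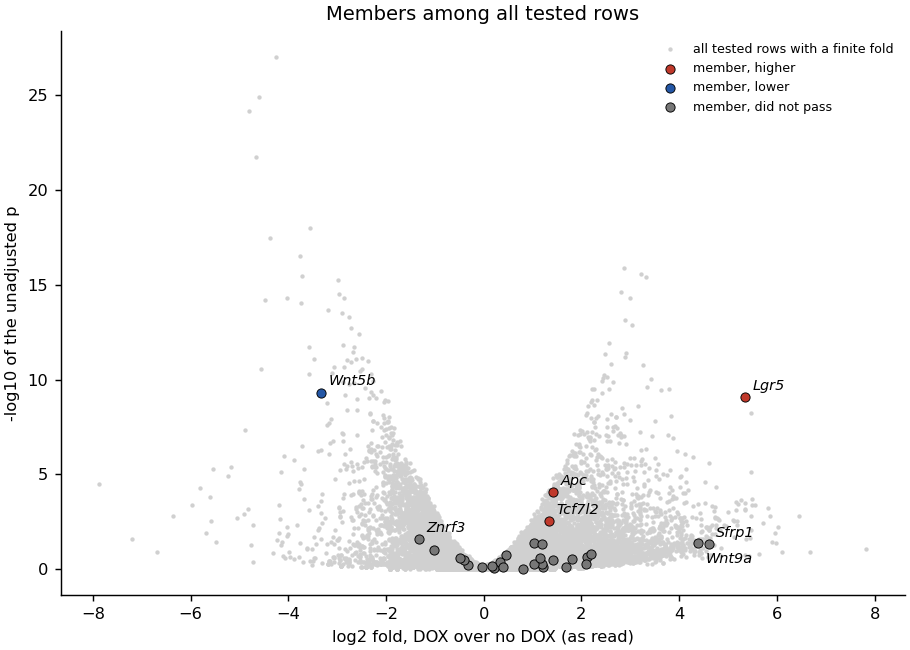
Log2 fold, read as DOX over no DOX (horizontal axis), against -log10 of the unadjusted p (vertical axis) for all tested rows with a finite ratio (grey) and for the members among them (large points). Lgr5 at 5.35 and Wnt5b at -3.33 stand far from the other members, Apc (1.42) and Tcf7l2 (1.33) lie inside the body of risen rows, and Sfrp1 (4.60) and Wnt9a (4.39) have large folds with an unadjusted p just under 0.05.

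The sequences shown next are the places where miR-155 could pair with the called members, because DOX was given to turn miR-155 off. The mature RNA is given with its seed, bases 2 to 8, in capitals, from RefSeq on build GRCm38.p6 (chr16:84714143-84714165, plus strand).
mmu-miR-155-5p: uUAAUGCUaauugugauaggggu
Sites were searched in the longest annotated 3' UTR of each gene (GENCODE M21), as AGCATTA (the complement of seed bases 2 to 8) or GCATTAA (the complement of bases 2 to 7 followed by A), on the transcript strand only. Overlapping matches count as 1 site of 8 bases, and capitals mark the site.
Lgr5, base 1589 of 1703 in the 3' UTR: aatttccccaatGCATTAActgtacat
Tcf7l2, base 1401 of 2239: acattgacattcGCATTAAggatcagt
Tcf7l2, base 1416 of 2239: ttaaggatcagtAGCATTAAcaaaactt
The Tcf7l2 sites lie close together, and the second one is a match of 8 bases. The 3' UTR of Apc also held 1 site, of 7 bases, and that of Wnt5b held 0. The 3' UTRs searched were 1703 bases long for Lgr5, 2239 for Tcf7l2, 3971 for Apc and 867 for Wnt5b, so less sequence was searched in the member that fell.

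Such sites were also found in members that did not pass. In all, 13 of the 44 tested members (29.5%) had one, beside 13.2% of 11767 tested rows with a 3' UTR, and the median 3' UTR was 1732 bases long among the members and 1133 among all. The part of that length in the difference was not tested. Sites of 8 bases stood in Lrp6, the coreceptor gene, and in Tcf7, a factor of T cell development, shown here as the other complete matches among the members.
Lrp6, base 1840 of 4310 in the 3' UTR: ttcagtcagataAGCATTAActcttcct
Tcf7, base 871 of 1512: aagaagctcaccAGCATTAAcaactagt
Their log2 folds were 0.45 for Lrp6 (adjusted p = 0.493) and 1.15 for Tcf7 (adjusted p = 0.606) per the authors' deposited table, and neither passed. Znrf3, with a site of 7 bases, had a log2 fold of -1.32 per the authors' deposited table. Over members with a finite ratio, the median log2 fold was 1.09 for the 12 with a site and 1.00 for the 18 without, and over all rows matched it was 0.39 for 1397 rows with a site and -0.04 for 9050 without, from the authors' deposited table. Lengths of rows with and without a site were not compared, and direction went with transcript length over the table, as given below. The part of length in these medians was not tested. A match is a description of sequence, and pairing was not measured.

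Among the ligands, 10 of 19 had a p and Wnt5b was the 1 called per the authors' deposited table. Wnt9a, a ligand known from joint and skeletal development, was 20.9-fold higher (log2 fold 4.39) with an unadjusted p of 0.0412 and an adjusted p of 0.198 per the authors' deposited table. The approximate interval ran from 0.18 to 8.60, so its large fold is poorly fixed and did not pass. Wnt2b (2.12), Wnt16 (1.69), Wnt10b (1.21) and Wnt6 (0.81) had log2 folds above 0 with unadjusted p from 0.223 to 1 per the authors' deposited table. Wnt5a, the close relative of Wnt5b and the prototype of beta-catenin-independent ligands, had a ratio listed as infinite (p = 0.219) per the authors' deposited table, that is, no signal in no DOX tumours as read here. Whether Wnt5a and Wnt5b differ in their response was not tested. Wnt8b, Wnt10a and Wnt11 were likewise listed as infinite, each with p = 0.977, per the authors' deposited table. Wnt1, Wnt2, Wnt3, Wnt3a, Wnt4, Wnt7a, Wnt7b, Wnt8a and Wnt9b had neither ratio nor p, so nothing can be said of them.

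Many infinite ratios shared their p with other rows. The p of 0.977 of Wnt10a, Rspo3 and Dkk4 was the same, to the last deposited digit, in 378 rows of the authors' deposited table, that of Wnt8b and Rspo1 in 336, and that of Wnt11 and Sfrp5 in 224. Rspo1, Rspo2 and Rspo3, the secreted partners of the Lgr receptors, were all listed as infinite, with p of 0.977, 0.777 and 0.977 per the authors' deposited table. Rspo4 had no value. A rise of Lgr5 therefore stood beside no finite ratio for any R-spondin.

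Of the other Lgr receptors, Lgr4 was 3.51-fold higher with a log2 fold of 1.81 (adjusted p = 0.646) per the authors' deposited table and an approximate interval from -1.46 to 5.09. Lgr6 had no value. The interval of Lgr4 overlaps that of Lgr5, and the difference between these receptors was not tested. Znrf3, the ubiquitin ligase that Lgr receptors and R-spondins remove, had a log2 fold of -1.32 with an unadjusted p of 0.0261 and an adjusted p of 0.146 per the authors' deposited table, and an approximate interval of -2.48 to -0.16. Rnf43, its close relative, was listed as infinite (p = 0.174) per the authors' deposited table.

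No Frizzled receptor or LRP coreceptor passed. Of 9 Frizzled genes 8 had a p, and the lowest was that of Fzd5, 2.05-fold higher (log2 fold 1.04, unadjusted p = 0.0443, adjusted p = 0.207) per the authors' deposited table. Fzd8 (2.09), Fzd1 (1.42), Fzd4 (1.20), Fzd3 (1.04) and Fzd7 (0.20) had log2 folds above 0 with unadjusted p from 0.338 to 0.886 per the authors' deposited table. Fzd6 was listed as infinite (p = 0.481), Fzd9 as 0 (p = 0.611) and Fzd10 without a value per the authors' deposited table. The coreceptor genes had log2 folds of 0.45 for Lrp6 (p = 0.175) and -0.33 for Lrp5 (p = 0.631) per the authors' deposited table. For Lrp6 the approximate interval was -0.20 to 1.10.

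Secreted inhibitors bind Wnt proteins (Sfrp) or LRP coreceptors (most Dkk proteins). Sfrp1 was 24.3-fold higher (log2 fold 4.60) with an unadjusted p of 0.0461 and an adjusted p of 0.212 per the authors' deposited table, and its approximate interval of 0.08 to 9.13 was the widest of any member. Sfrp2 (2.20, p = 0.151) and Dkk3 (-1.03, p = 0.102) did not pass per the authors' deposited table. Sfrp4, Sfrp5, Dkk2 and Dkk4 were listed as infinite, with p from 0.481 to 0.977, per the authors' deposited table, and Dkk1 had no value. A row listed as Dkk-3 falls outside the pattern and is not counted.

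**Figure D3:**
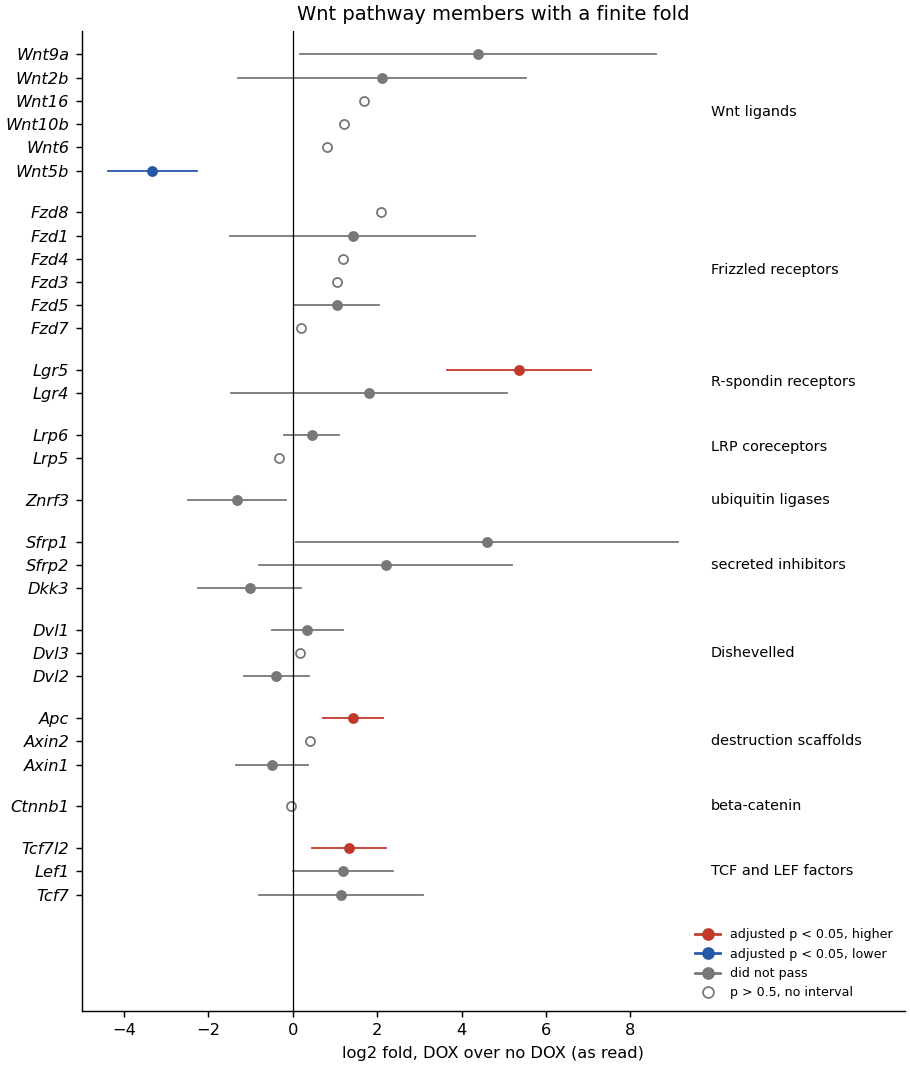
Log2 fold, read as DOX over no DOX (horizontal axis), of the 30 members with a finite ratio, by functional group. Bars are approximate 95% intervals from the fold and its unadjusted p, open points have a p over 0.5 and no interval, and the bars of Sfrp1 (0.08 to 9.13) and Wnt9a (0.18 to 8.60) are several times as wide as that of Apc (0.71 to 2.13).

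Inside the cell, Apc was the 1 scaffold of the destruction complex that passed. Axin1 had a log2 fold of -0.49 (p = 0.256) per the authors' deposited table with an approximate interval of -1.34 to 0.36. Axin2, the scaffold gene that beta-catenin itself induces in many tissues and a common readout of the pathway, had a log2 fold of 0.40 (p = 0.786) per the authors' deposited table. Ctnnb1 had a ratio of 0.974 and a log2 fold of -0.04 (p = 0.792) per the authors' deposited table. The Dishevelled adaptor genes, which relay the signal from Frizzled, had log2 folds of 0.34 for Dvl1, -0.39 for Dvl2 and 0.17 for Dvl3 with p from 0.318 to 0.718 per the authors' deposited table. For Dvl1 (-0.50 to 1.19) and Dvl2 (-1.16 to 0.38) the approximate intervals include no change. RNA levels say nothing of the amount or place of beta-catenin protein, which was not measured.

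All 3 TCF and LEF genes matched had log2 folds between 1.15 and 1.33 per the authors' deposited table, and Tcf7l2 alone passed. Lef1, a factor of early B and T lymphoid cells, was 2.27-fold higher (log2 fold 1.18, unadjusted p = 0.0489, adjusted p = 0.220) per the authors' deposited table, with an approximate interval from 0.01 to 2.36. Tcf7 was 2.21-fold higher (1.15, adjusted p = 0.606) per the authors' deposited table, with an interval of -0.80 to 3.09. These folds are close in size and differ in precision. Tcf7l1 and Fzd2 matched no symbol and were not analysed here, and the row listed as Tcf3 carries the accession of the E protein gene of that name.

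TCF and LEF factors bind the letters NNCAAAG, where each N is A or T. These were searched on both strands of RefSeq promoters (GRCm38.p6, from 250 bases before to 50 after each start), which were found for 38 of the 57 members. Of these, 7 members (18.4%) had a match in at least 1 promoter, beside 18.9% of 27025 genes. Among called members, Wnt5b and Tcf7l2 had promoters in that table, and each had 1 match, at 1 of its alternative starts. The promoters are shown because these members passed in opposite directions, with the match in capitals.
Wnt5b, chr6:119449337-119449636, minus strand: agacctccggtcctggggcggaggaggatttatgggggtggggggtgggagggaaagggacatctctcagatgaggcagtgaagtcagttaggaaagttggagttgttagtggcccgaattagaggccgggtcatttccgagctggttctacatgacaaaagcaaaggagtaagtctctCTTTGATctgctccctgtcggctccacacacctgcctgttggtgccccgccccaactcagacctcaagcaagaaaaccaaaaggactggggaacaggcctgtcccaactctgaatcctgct
Tcf7l2, chr19:55895071-55895370, plus strand: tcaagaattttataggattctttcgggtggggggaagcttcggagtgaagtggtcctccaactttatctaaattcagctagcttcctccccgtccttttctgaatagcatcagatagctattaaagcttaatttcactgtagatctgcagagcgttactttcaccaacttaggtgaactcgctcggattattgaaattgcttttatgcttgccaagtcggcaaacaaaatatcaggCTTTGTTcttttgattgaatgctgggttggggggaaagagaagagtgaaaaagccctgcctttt
Counted from the annotated start, the Wnt5b match begins at base -71 and the Tcf7l2 match at base -14, both as the reverse complement. The files do not say which start was used, and binding was not measured.

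The members' folds leaned upward. Of the 30 with a finite ratio, 23 (76.7%) were above 1, beside 55.9% of 15784 such rows, and their median log2 fold was 1.09, beside 0.17 over all, from the authors' deposited table. Infinite ratios made up 29.5% of the tested members and 11.8% of all tested rows per the authors' deposited table. Over all tested rows 2180 ratios were infinite and 579 were 0, so such rows leaned upward in the whole table too. The part of low signal in the members' lean was not tested. At an unadjusted p under 0.05 there were 9 members (20.5%), 7 higher and 2 lower, beside 22.4% of all tested rows per the authors' deposited table. Of the 26 members with a finite ratio and no call, 20 were above 1 per the authors' deposited table.

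Transcript length went with direction across the 11798 tested rows matched to a transcript of known length, and is given beside the called members for that reason. In the longest of 10 classes of transcript length 14.7% of rows rose and 3.31% fell, and in the shortest 0.763% rose and 17.97% fell, from the authors' deposited table. Apc, with a longest transcript of 12811 bases, lay in the longest class. Lgr5 (4714 bases) lay in the eighth class, where 6.36% rose and 4.92% fell per the authors' deposited table. Tcf7l2 (3715 bases) lay in the seventh class, where 5.60% rose and 5.09% fell, and Wnt5b (2371 bases) in the fourth, where 2.12% rose and 7.72% fell, per the authors' deposited table. The part of length in the members' folds was not tested.

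Other genes of the pathway, in 6 lists written out by role, held 12 calls, of which 8 were reported targets. Of 101 tested genes in these lists, 7 rose and 5 fell (11.9%, beside 11.3% of all rows) per the authors' deposited table. Of 24 tested genes reported as targets of beta-catenin in other tissues, 5 rose and 3 fell (33.3% called), per the authors' deposited table. The lists were chosen with earlier results of these data known, so this share cannot be read as an excess. Their median log2 fold was 0.01 over the 14 with a finite ratio, which ran from -4.80 to 2.06, and 1.32 over all 24 with ratios of 0 and infinity kept as lowest and highest ranks, from the authors' deposited table. The cyclin genes Ccnd2 (log2 fold -3.58, adjusted p = 1.83e-08) and Ccnd1 (-2.85, 0.00270), which drive entry into S phase, fell together with Myc (-4.80) per the authors' deposited table. Tcf4, the E protein gene also called ITF2 (1.44, adjusted p = 0.00139), Jun (2.06) and the TNF receptor family gene Tnfrsf19 (1.29, adjusted p = 0.0411) rose per the authors' deposited table. Irs1 and Ephb3 were called with ratios listed as infinite (adjusted p = 0.0306 and 0.0432) per the authors' deposited table. Nkd1, an inducible inhibitor of Dishevelled, had a log2 fold of -1.84 and did not pass (adjusted p = 0.186) per the authors' deposited table.

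In the cytoplasmic list 1 of 24 tested genes fell and 0 rose, namely Csnk2b, the regulatory subunit of casein kinase CK2 (-1.12, adjusted p = 0.0337), per the authors' deposited table. Gsk3b (0.17) and Csnk1a1 (-0.06), kinases that mark beta-catenin for breakdown, had p of 0.592 and 0.832 per the authors' deposited table. Gsk3a, in the same list, had a log2 fold of -0.81 with an unadjusted p of 0.0503 and did not pass. In the nuclear list 1 of 20 rose, the repressor gene Hbp1 (1.29, adjusted p = 0.00566), per the authors' deposited table. Of 22 genes of the polarity and calcium branches, Daam2, a formin that acts with Dishevelled, rose (2.28, adjusted p = 0.0206) and Celsr1, a cadherin of planar polarity, fell (-2.03, adjusted p = 1.98e-06) per the authors' deposited table. None of 10 other receptors and inhibitors passed, the lowest adjusted p being that of Sost (0.231, ratio listed as 0), and none of 2 secretion genes did, the lowest being 0.715 for Gpr177, per the authors' deposited table. In these last lists 0 genes had an unadjusted p under 0.05 per the authors' deposited table. At that threshold there were 6 cytoplasmic (25%), 5 nuclear (25%) and 6 polarity and calcium genes (27.3%), beside 22.4% of all tested rows. The share called was 4.17% of the cytoplasmic, 5% of the nuclear and 9.09% of the polarity and calcium genes. Of all tested rows 11.3% were called.

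The samples are bulk tumours, so fewer cells of a type and less RNA per cell cannot be told apart. Markers of other cells were compared in the same way, beside 11.3% of all tested rows called. Of 13 fibroblast markers 2 rose and 0 fell (median log2 fold 1.95), of 12 macrophage markers 3 rose and 0 fell (2.04), and of 9 tested endothelial markers 0 rose and 1 fell (0.89), per the authors' deposited table. Of 12 B lineage markers 3 rose and 0 fell (0.49), and of 9 tested T lineage markers 0 were called (-0.79), per the authors' deposited table. The part of these cells in the folds of Lgr5, Sfrp1, Sfrp2 or any other member was not tested. All 12 B lineage markers had a finite ratio, so each had signal in both groups, and levels themselves are not in the table. The same held for all 13 fibroblast, 12 macrophage, 9 tested endothelial and 9 tested T lineage markers, so it does not set the B lineage apart. Of 7 keratinocyte markers 4 had a p and 0 were called, and of 7 muscle markers 0 were called per the authors' deposited table. Their median log2 folds were -2.44 over 2 finite ratios for keratinocyte markers and 2.07 over 6 for muscle markers.

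**Figure D4:**
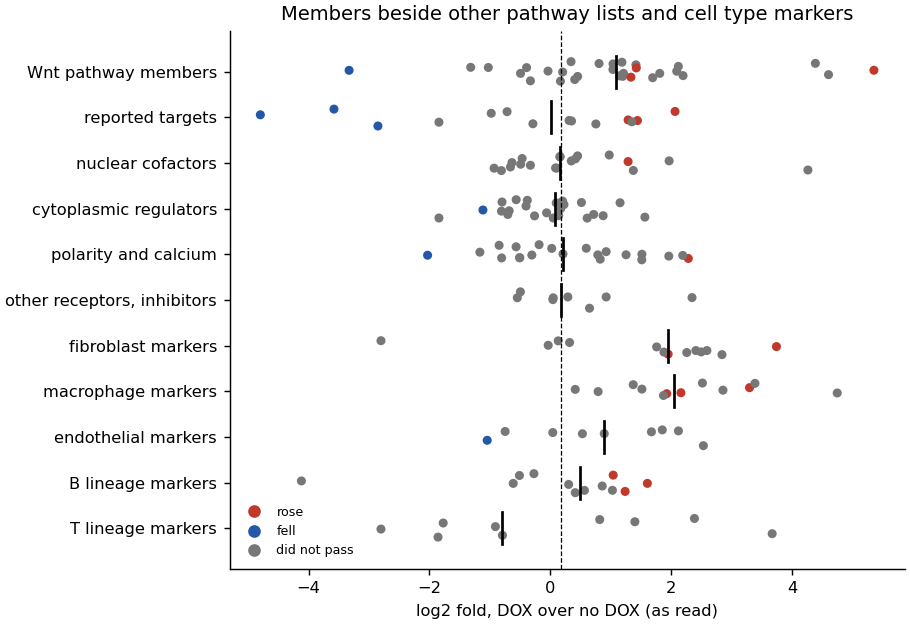
Log2 fold, read as DOX over no DOX (horizontal axis), of each gene with a finite ratio in the Wnt pathway members, in the other pathway lists and in cell type markers; points are spread vertically for sight, solid bars are list medians and the dashed line is the median of all tested rows with a finite ratio (0.17). Members have a median of 1.09, fibroblast markers 1.95 and macrophage markers 2.04, and cytoplasmic regulators 0.07. Of the 24 tested reported targets 14 are drawn, and the 9 listed as infinite and 1 listed as 0 are not.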

How the data were processed

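RNA was measured by sequencing of ribosome-depleted total RNA from 6 tumour samples, 3 DOX and 3 no DOX, per the labels' protocols. The submitters' processing notes name RSEM and DESeq, without versions, and mouse build mm9. The file deposited by the authors holds a linear fold (ratio) per gene with an unadjusted p-value and an adjusted p-value. The adjusted p matches a Benjamini-Hochberg adjustment over 18543 tested rows to within 2.09e-06. No counts, depths or values per sample were given, so depth is unknown and no new test across samples was run. The deposited log2 column holds cells that are not numbers and was not used, and log2 folds were taken from the ratio. The ratio was read as DOX over no DOX.

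An implied standard error was had by dividing the size of the log2 fold by the z value that matches the unadjusted p (p at most 0.5), and intervals are 95%. This step and the adjustment were run on simulated normal estimates. That checks the arithmetic only, and not whether such intervals suit the deposited p-values. All 57 members matched a current RefSeq symbol. Genes named are all called members, those with an unadjusted p under 0.05, those listed at 0 or infinite, and each pathway node with 1 to 3 genes, plus, from each other list, called genes and the smallest adjusted p. Members with a p over 0.05 outside this rule (among the Wnt, Frizzled, Sfrp and Dkk genes) and Gsk3a, Gsk3b, Csnk1a1 and Nkd1 were named after their values were seen. Members and lists were chosen with earlier results of these data known. Transcripts came from GENCODE M21 and promoters and the microRNA from RefSeq GRCm38.p6, not mm9. The authors' values, which rest on mm9, were joined to them by gene symbol. No coordinates of different builds were mixed, but the gene models may differ. Python 3.11.15, pandas 2.3.3, numpy 2.4.6 and scipy 1.17.1 were used. Alternatives covered the threshold, the adjustment, the rows tested, a 2-fold minimum and the treatment of ratios of 0 and infinity.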

Additional observations from a re-analysis of the deposited data

How the results depend on the processing

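The 4 called members (3 higher, 1 lower) were the same genes at an adjusted p under 0.1, among finite ratios alone, among named genes alone and with a 2-fold minimum, and 3 of them passed at an adjusted p under 0.01, where Tcf7l2 was lost. A Bonferroni adjustment left 2 (Lgr5 and Wnt5b), and an unadjusted p under 0.05 gave 9, by construction stricter and laxer. For the same settings the whole table had 291 and 4147 called rows, and 1145 at an adjusted p under 0.01, against 2101 as reported. The other pathway lists had 3, 28 and 6 called genes under these settings, against 12. Among named genes alone the whole table had 596 rows higher and 884 lower, against 1060 and 1041 as reported. Calls were thus less even by direction among named genes, to which the members belong, than over all rows. The median log2 fold of the members was 1.42 with ratios of 0 and infinity kept as lowest and highest ranks, against 1.09. The median of the reported targets was 1.32 under this setting, which was chosen for them after seeing the data, against 0.01. No paired analysis was possible because the table holds no values per sample, and for the same reason leaving out each replicate was not run. The direction of every fold depends on the reading of the ratio.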
